A study of Saccharomyces cerevisiae with 12 samples.

Results

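GRE2 and 4 other yeast genes of methylglyoxal and aldehyde detoxification, GRE3, GLO1, GLO2 and GLO4, were followed over 12 Affymetrix yeast arrays. The 5 genes were taken by their names from the platform annotation, each through the 1 probe set that carries its symbol alone, out of 5656 genes with such a probe set. The set was chosen by the response of GRE2 to methyl methanesulfonate (MMS), an alkylating agent that damages DNA, as earlier results of these arrays showed it. The MMS responses of the 5 genes are therefore given below as descriptions, without a test. All 5 were among the 5368 genes tested, but GRE2 in untreated cells and GLO4 throughout lay close to background.

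The study measured total RNA of Saccharomyces cerevisiae in 3 strains, a wild type and the TFIIH mutants C403A and C406A, each either untreated or exposed to 0.03% MMS for 30 minutes, with 2 arrays for each of the 6 combinations. TFIIH is the general transcription factor that also opens DNA in nucleotide excision repair. The labels name the substitutions but no subunit; both are known as changes of a cysteine to alanine in the RING finger of the Ssl1 subunit. Replicate arrays carry the numbers 1 and 2 only as names, and since the labels do not say that they came from separate cultures, the p-values below measure the spread between these arrays, which may be technical.

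Methylglyoxal is a reactive aldehyde that forms mainly as a by-product of glycolysis, from triose phosphates, and that modifies proteins and DNA. Yeast removes it by a pair of routes. In the glyoxalase route, Glo1 (glyoxalase I) converts the adduct of methylglyoxal with glutathione to S-lactoylglutathione, and the glyoxalases II, the cytosolic Glo2 and the mitochondrial Glo4, hydrolyse that product to lactate and free glutathione. In the reductive route, NADPH-dependent reductases, among them Gre2 and the aldo-keto reductase Gre3, reduce methylglyoxal itself. Gre2 also reduces isovaleraldehyde, and Gre3 is best known as an aldose (xylose) reductase. Both genes take their name from a screen for genes responsive to osmotic stress.

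Levels are quantile-normalized intensities, comparable between arrays for 1 probe set and not between probe sets. Intensities at or under the 20th percentile of all values, 34.5, were treated as background and set to this floor, and differences are on the log2 scale. Deposited medians per array ran from 184.5 to 311, and the 2 arrays of a group correlated at 0.985 to 0.993 over the tested genes. The arrays were scanned strain by strain within 1 day, so that strain and scan order cannot be told apart. Within each strain both untreated arrays were scanned before both MMS arrays, so that treatment and scan order within a strain cannot be told apart either. The SSL1 transcript was 2.87-fold higher in C403A than in wild type without MMS and 2.09-fold higher in C406A (adjusted p = 1.95e-05 and 0.000352, limma with Benjamini-Hochberg adjustment), and its level says nothing of the substitution itself.

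GRE2 went from near background to a clear signal with MMS in all 3 strains. In wild type its untreated arrays read 99.7 and 31.3, the second below the floor, and its MMS arrays read 1047 and 1028. In C403A the untreated arrays read 60.3 and 129.6 and the MMS arrays 686 and 681. In C406A the untreated arrays read 71.3 and 38.9 and the MMS arrays 777.5 and 654. Every MMS array of a strain lay far above both of its untreated arrays. The MMS arrays stood 19 to 30.4 times above the floor, against 0.908 to 3.76 times for the untreated arrays. The mean log2 differences between MMS and untreated arrays were 4.15 ± 0.49 (SE, n = 2 arrays a group) in wild type, 2.95 ± 0.49 in C403A and 3.76 ± 0.49 in C406A, which correspond to 17.7-fold, 7.73-fold and 13.5-fold. In each strain this was the largest increase among the 5368 genes tested, a description that the choice of the gene already carries.

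**Figure D1:**
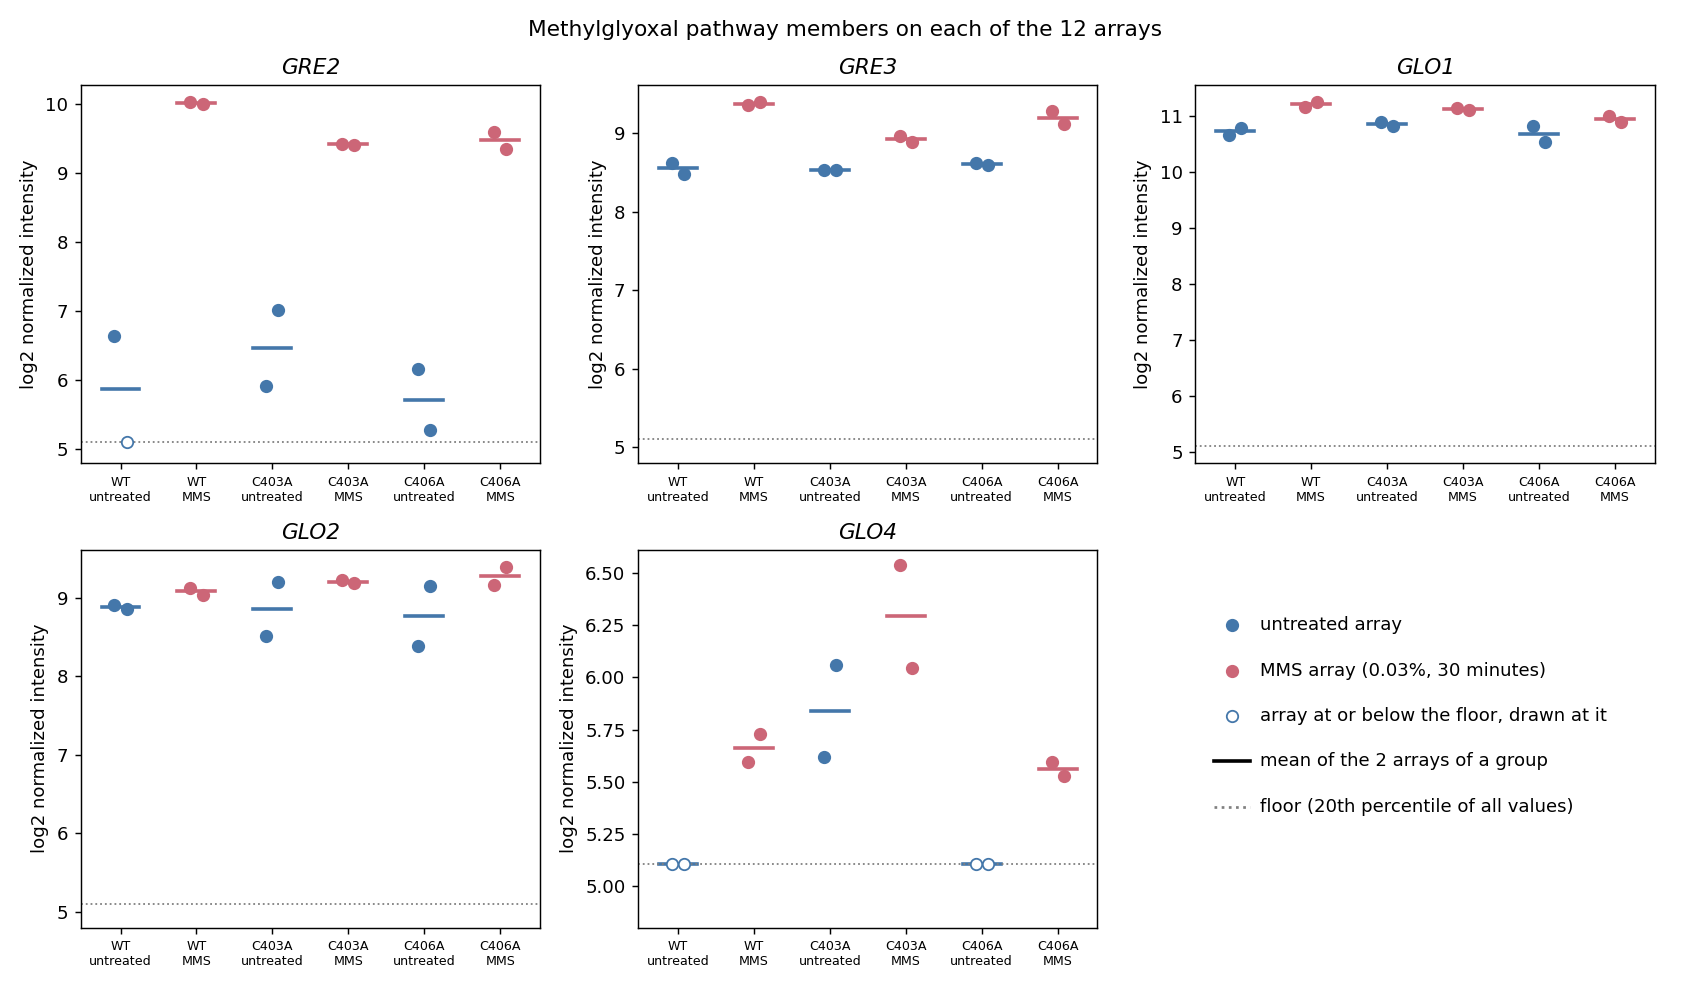
Log2 normalized intensity of the 5 genes on each of the 12 arrays, 1 panel a gene, with its own scale; points are arrays, horizontal bars the mean of the 2 arrays of a group, open points arrays at or below the floor (dotted line). GRE2 sits near the floor without MMS and high above it with MMS, GLO4 stays close to the floor on all 12 arrays, and GLO2 has its widest replicate gaps in the untreated mutants.

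The size of the GRE2 response rests on untreated values that repeated poorly. The gap between the 2 untreated arrays was 1.53 in log2 units in wild type, 1.1 in C403A and 0.87 in C406A, whereas the MMS arrays differed by 0.03, 0.01 and 0.25. The residual SD of GRE2 over all groups was 0.61 log2 units, at the 99.1th percentile of the tested genes, whose median was 0.11. The separation itself did not depend on these gaps: the lower MMS array exceeded the higher untreated array by 3.37 log2 units in wild type, 2.39 in C403A and 3.20 in C406A. With background set at the 40th percentile, 148.4, all 6 untreated arrays were at the floor and the differences became 2.81, 2.204 and 2.27, which are lower limits. In RNA from whole cultures, a change in every cell and a change in some of the cells cannot be told apart.

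Among MMS-treated cells, the order of GRE2 levels was wild type, then C406A and C403A, whose arrays overlapped. Both MMS arrays of each mutant lay below both wild-type MMS arrays. The difference from wild type was -0.60 in C403A (1.52-fold lower, 95% interval -1.70 to 0.49, adjusted p = 0.466, limma) and -0.54 in C406A (1.46-fold lower, 95% interval -1.63 to 0.55, adjusted p = 0.569, limma). Neither passed the threshold of 0.05 in this fit, whose error for GRE2 includes the scatter of the untreated arrays. With the floor at the 40th percentile, all 6 untreated arrays took the same value, so the error left out their spread. Both differences were unchanged and passed (adjusted p = 0.00287 for C403A and 0.0109 for C406A, limma). Since only the error shrank, through the floor, these calls add no support. With only the MMS arrays of wild type and C403A fitted, the C403A difference was again -0.60 and passed (adjusted p = 0.0365, limma). That fit held no untreated arrays, so its error left out their spread as well, and this call adds no support either.

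Without MMS, the GRE2 arrays of all 3 strains overlapped. The difference from wild type was 0.59 in C403A (95% interval -0.50 to 1.69, adjusted p = 0.448, limma) and -0.15 in C406A (95% interval -1.25 to 0.94, adjusted p = 0.923, limma). Leaving out 1 untreated array turned either sign: the C403A difference was -0.17 without wild-type array 2, and the C406A difference was 0.61 without wild-type array 1 and 0.28 without C406A array 2. No order of the strains can be read from untreated GRE2. The MMS response of GRE2 was smaller than that of wild type by 1.20 ± 0.69 log2 units in C403A and by 0.39 ± 0.69 in C406A, given without a test. The C403A value ranged from -1.96 to -0.43 when single arrays were left out, and the C406A value from -1.15 to 0.38, with a positive sign without wild-type untreated array 2 (0.38) or without C406A untreated array 1 (0.05).

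GRE3, the aldose reductase of the reductive route, was well above background on every array, at 10.4 to 19.6 times the floor, and it was the member with the tightest replicates (residual SD 0.07). Its wild-type arrays read 393 and 358 without MMS and 654 and 675 with it. In C403A they read 369.6 and 371 without MMS and 498.5 and 472 with it. In C406A they read 394 and 385 without MMS and 621 and 555 with it. GRE3 was higher with MMS in each strain without overlap, by 1.77-fold in wild type, 1.31-fold in C403A and 1.51-fold in C406A (log2 differences 0.82, 0.39 and 0.59, each ± 0.08 SE).

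Without MMS the GRE3 arrays of each mutant overlapped those of wild type, and with MMS they did not. The untreated differences from wild type were -0.02 in C403A (95% interval -0.21 to 0.17, adjusted p = 0.907, limma) and 0.05 in C406A (95% interval -0.13 to 0.24, adjusted p = 0.795, limma). With MMS, GRE3 was 1.37-fold lower in C403A than in wild type (log2 difference -0.45 ± 0.08, 95% interval -0.64 to -0.27, adjusted p = 0.00842, limma). This was the 1 call among the 5 genes in that comparison, in which 6.09% of all tested genes were called lower. The call was lost without C403A MMS array 2 (adjusted p = 0.0549), with the compared arrays fitted alone (0.0522) and on the intensities as deposited (0.698), with the same sign each time. In C406A the MMS difference from wild type was -0.18 (95% interval -0.37 to 0.01, adjusted p = 0.26, limma), with both arrays below both wild-type arrays. The order of GRE3 levels with MMS was therefore wild type, C406A and C403A with no overlap between neighbours, of which wild type and C406A were not called apart and C406A and C403A were not tested.

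Tested directly, the MMS response of GRE3 in C403A was smaller than in wild type by 0.44 ± 0.12 log2 units (95% interval -0.70 to -0.17). This was under 0.05 before adjustment over all genes and did not pass after it (adjusted p = 0.113, limma). The same difference in C406A was -0.23 (95% interval -0.50 to 0.03, adjusted p = 0.62, limma), and its sign turned when arrays were scaled to hybridization controls (0.11).

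**Figure D2:**
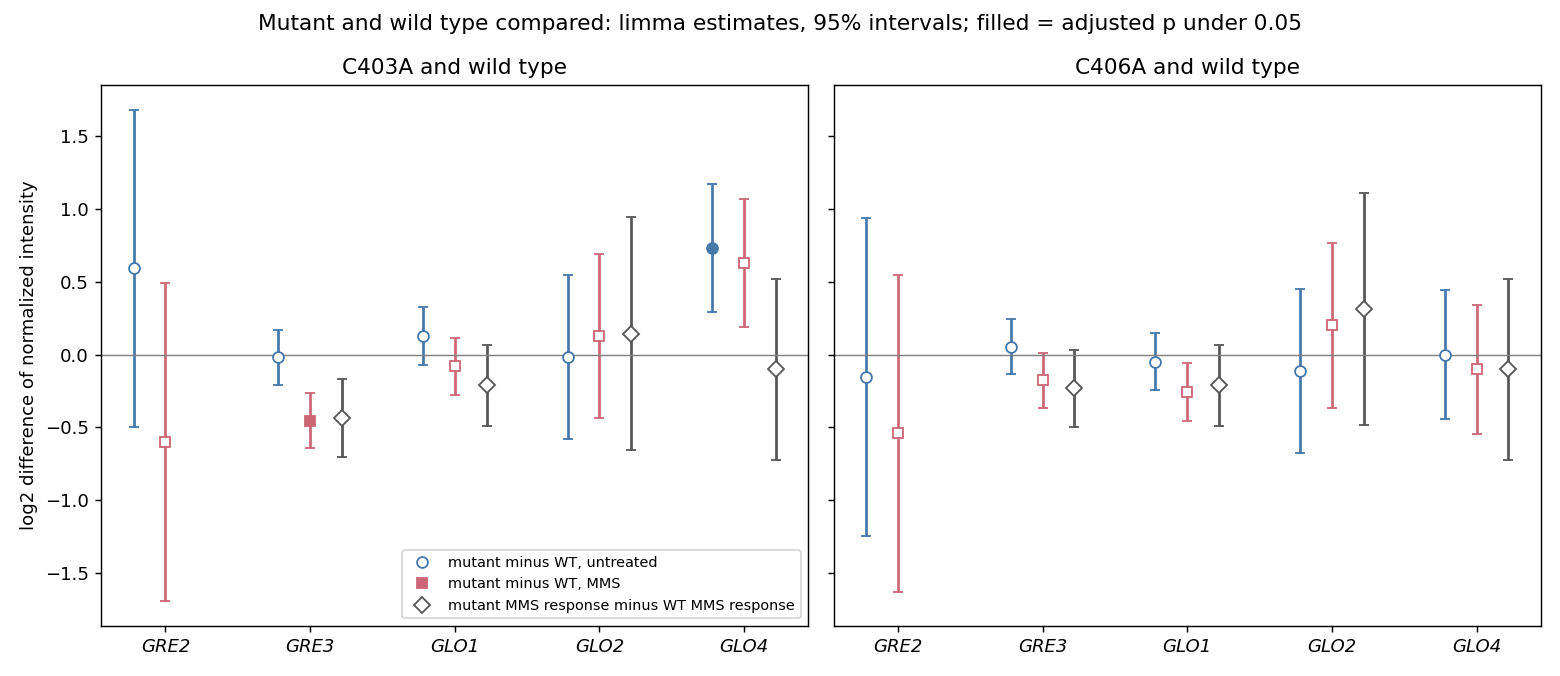
Log2 differences of normalized intensity between each mutant and wild type for the 5 genes, with 95% intervals: untreated cells (circles), MMS-treated cells (squares) and the difference between the MMS responses (diamonds, not drawn for GRE2). Filled symbols passed an adjusted p of 0.05 in limma, and these are GRE3 with MMS and GLO4 without MMS, both in C403A.

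GLO1, which encodes glyoxalase I, had a strong signal on all arrays, 43 to 70.2 times the floor. In wild type it read 1619 and 1752 without MMS and 2283 and 2418 with it. In C403A it read 1881 and 1803 without MMS and 2248 and 2192 with it. In C406A it read 1791 and 1482 without MMS and 2037 and 1893 with it. The MMS arrays lay above the untreated arrays in every strain, by 1.40-fold in wild type and 1.21-fold in each mutant (log2 differences 0.48, 0.27 and 0.27, each ± 0.09 SE). In C406A the lower MMS array exceeded the higher untreated array by only 0.08 log2 units.

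No strain difference in GLO1 passed the test. The largest was in MMS-treated C406A, where both arrays lay below both wild-type arrays (log2 difference -0.26 ± 0.09, 1.2-fold lower, 95% interval -0.46 to -0.06, adjusted p = 0.135, limma). In MMS-treated C403A the difference was -0.08 (95% interval -0.28 to 0.12, adjusted p = 0.599, limma), and on the intensities as deposited its sign turned (0.03). Without MMS, C403A differed by 0.13 (adjusted p = 0.36, limma), and by -0.11 when scaled to hybridization controls. The untreated C406A difference was -0.05 (95% interval -0.25 to 0.15, adjusted p = 0.841, limma). The MMS response was smaller than that of wild type by 0.21 ± 0.13 log2 units in either mutant, with adjusted p = 0.458 for C403A and 0.692 for C406A (limma).

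GLO2, the cytosolic glyoxalase II that releases lactate and glutathione, was measured at 9.65 to 19.5 times the floor but repeated unevenly. In wild type it read 478 and 462 without MMS and 556 and 524.5 with it. In C403A it read 366 and 588 without MMS and 599 and 579.5 with it. In C406A it read 333 and 569 without MMS and 572 and 673 with it. In both mutants, untreated array 1 was the low one. The replicate gap was 0.68 log2 units in untreated C403A and 0.77 in untreated C406A, against 0.05 in untreated wild type.

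The MMS differences of GLO2 were 0.20 in wild type, 0.35 in C403A and 0.51 in C406A, each ± 0.25 SE, with overlapping arrays in C403A and a gap of only 0.01 log2 units in C406A. Its 4 differences between a mutant and wild type ran from -0.11 to 0.20, with adjusted p from 0.71 to 0.974 (limma). Their 95% intervals were wide, from -0.68 to 0.45 in untreated C406A for example, and a difference of that size was not detectable for GLO2 at this spread. The differences between MMS responses were 0.14 in C403A and 0.31 in C406A (adjusted p = 0.891 and 0.822, limma), and each turned negative without the low untreated array of that mutant (-0.20 and -0.08).

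GLO4, the mitochondrial glyoxalase II, lay at the edge of detection, and its highest array reached 2.7 times the floor. In wild type it read 29.8 and 3.07 without MMS, both below the floor, and 48.3 and 53.1 with MMS. In C406A it read 26.9 and 18.5 without MMS, again both below the floor, and 48.4 and 46.1 with MMS. In C403A it read 49.2 and 66.6 without MMS and 93.1 and 66.1 with MMS, and these were the only untreated arrays above the floor. Set against the floor, GLO4 with MMS was at least 1.47-fold higher in wild type and at least 1.37-fold higher in C406A. In C403A the arrays with and without MMS overlapped, at a mean ratio of 1.37.

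Without MMS, GLO4 was at least 1.66-fold higher in C403A than in wild type (log2 difference from the floor 0.73 ± 0.20, adjusted p = 0.0366, limma). It was the 1 call among the 5 genes in that comparison, in which 9.17% of all tested genes were called higher. The 4 untreated arrays of wild type and C406A were set to the floor. The error used for every GLO4 comparison therefore leaves out their spread, and its p-values are too small by an unknown amount. The call was lost in 13 of the 20 alternative fits that could test GLO4. It was lost when wild-type untreated array 1 or 2 (adjusted p = 0.112 and 0.122), wild-type MMS array 1 or 2 (0.0504 and 0.0506), C403A untreated array 2 (0.18), or C406A untreated array 1 or 2 (0.0561 and 0.056) was left out. It was also lost under median scaling (0.0607), hybridization-control scaling (0.124) and the deposited scale (0.497). Without a floor the log2 difference became 2.58, because wild-type array 2 read 3.07, and the adjusted p was 0.0682. With MMS, both C403A arrays were above both wild-type arrays (log2 difference 0.63, 1.55-fold, 95% interval 0.19 to 1.07, adjusted p = 0.0632, limma). In C406A with MMS the difference was -0.10 (95% interval -0.54 to 0.34, adjusted p = 0.819, limma), and no fold is given for untreated C406A, where both strains were at the floor. The differences between MMS responses of GLO4 were -0.10 in each mutant (adjusted p = 0.904 and 0.935, limma) and rest on floor values.

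Counted over the 5 genes, arrays with MMS lay above arrays without it for 5 of 5 in wild type, where 35.8% of all tested genes did so, for 3 of 5 in C403A (28%) and for 5 of 5 in C406A (34.4%). The median log2 difference of the 5 genes was 0.56 in wild type, 0.39 in C403A and 0.51 in C406A, beside medians over all tested genes of 0.02, 0 and 0. On the intensities as deposited the medians over all genes were 0.24, 0.28 and 0.43. The mutants share the same wild-type arrays, so their comparisons are given side by side only. With MMS, 2 of the 5 genes were higher in C403A than in wild type without overlap and 3 were lower, beside 32% and 28.4% of all tested genes. In C406A with MMS, 1 was higher and 3 were lower, beside 23% and 29.6%. Of the 5 genes, none passed for C406A with MMS, where 4.53% of all tested genes were called. There 1 of the 5, GLO1, had an unadjusted p under 0.05 (limma), beside 1134 of the 5368 tested genes. None passed for untreated C406A either, where 2.7% of the tested genes were called. There 0 of the 5 had such an unadjusted p, beside 923 of the 5368. Of the 4 genes whose MMS response was tested between strains, 0 passed for C403A and 0 for C406A, beside 0.987% and 0% of all tested genes. Under an unadjusted 0.05 were 1 and 0 of the 4, beside 871 and 451 of the 5368.

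The wider set of genes around methylglyoxal held 42 tested genes in 10 lists, drawn up with earlier results of these arrays known. With MMS, 18 of the 42 rose and 1 fell in wild type, where 33% of all tested genes passed in either direction. In C403A 11 rose and 4 fell (15.6%), and 15 rose and 0 fell in C406A (24%). When single arrays were left out, the number that rose ran from 14 to 19 in wild type, from 4 to 9 in C403A (lowest without MMS array 1) and from 7 to 15 in C406A (lowest without untreated array 1). Scaling to hybridization controls left 10 that rose in wild type and 3 in C403A, and on the intensities as deposited 25 rose in C406A. For none of the 42 did the MMS response in either mutant differ from that in wild type by an adjusted p under 0.05 (limma). Under an unadjusted 0.05 were 11 of the 42 for C403A and 2 for C406A, beside 871 and 451 of the 5368 tested genes.

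Reductases that share substrates with Gre3 were among the genes that rose. All 5 of the other aldo-keto reductases tested, GCY1, YPR1, ARA1, YDL124W and YJR096W, rose with MMS in wild type and in C406A, and 2 of 5 did in C403A. Of the 5368 tested genes, 1027, 683 and 452 rose in wild type, C406A and C403A, and 33%, 24% and 15.6% passed in either direction. The count of these reductases was between 4 and 5 in wild type and between 1 and 5 in C406A when single arrays were left out, lowest without C406A untreated array 1. It was 3 in wild type and 1 in C403A when scaled to hybridization controls, and 3 in C406A with the compared arrays fitted alone. GCY1, whose product is a glycerol dehydrogenase, rose by 1.57 ± 0.22 log2 units in wild type (2.97-fold, adjusted p = 0.000636, limma). YDL124W, an NADPH-dependent alpha-keto amide reductase, rose by 1.21 in wild type, 1.06 in C403A and 0.79 in C406A, each ± 0.08 SE (adjusted p = 1.47e-05, 9.37e-05 and 0.000256, limma).

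The closest relatives of GRE2, which encode intermediate short-chain reductases, moved little beside it. ARI1, an NADPH-dependent aldehyde reductase, rose by 0.35 ± 0.08 in wild type (adjusted p = 0.00663, limma; the call was lost without wild-type MMS array 1). In the mutants ARI1 differed by 0.06 and 0.19 (adjusted p = 0.643 and 0.104). YGL039W and YDR541C did not pass in any strain. Of the other NADPH-dependent reductases, OYE3, an old yellow enzyme that reduces enones, rose by 0.67 in C403A and 0.67 in C406A (adjusted p = 0.0261 and 0.0186, limma). In wild type its difference was 0.48 (adjusted p = 0.0544, limma). Each of the mutant calls was lost when the compared arrays were fitted alone. The C403A call was also lost without any 1 of its 4 arrays, and the C406A call without untreated array 1 or MMS array 2. OYE2 rose in C403A alone by the threshold, and its call was lost under 5 of the 9 other settings and in 8 of the 12 fits without 1 array, with a negative value (-0.04) when scaled to hybridization controls. ADH6 and ADH7 did not pass in any strain. ADH7 was dim and repeated poorly, with group means of 5.919 to 6.767 in log2 units beside a floor of 5.107 and an SE of 0.45.

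HSP31, a DJ-1 family protein with glutathione-independent glyoxalase activity, rose in all 3 strains, by 1.09 in wild type, 0.98 in C403A and 0.88 in C406A, each ± 0.11 SE (adjusted p = 0.000122, 0.000664 and 0.000675, limma). It was the 1 gene of its family with a probe set of its own, and its C403A call was lost with the compared arrays fitted alone. In glutathione supply, GSH1, the first enzyme of glutathione synthesis, rose by 0.86, 0.94 and 0.995, each ± 0.11 SE (adjusted p = 0.000312, 0.000664 and 0.00028, limma). GSH2, the second enzyme, rose by 0.25, 0.22 and 0.21, each ± 0.06 SE (adjusted p = 0.00854, 0.0295 and 0.0239, limma). The GSH2 calls were lost without wild-type MMS array 1 in wild type, and without any 1 of the 4 C406A arrays in C406A. The wild-type call was also lost on the intensities as deposited, when scaled to hybridization controls and with the compared arrays fitted alone, and the C403A call under these settings and under median scaling. In C403A the GSH2 call was lost in 5 of the 12 fits without 1 array: untreated array 1 or either MMS array of C403A, or either untreated array of C406A. GLR1, glutathione reductase, rose by 0.44 in wild type (adjusted p = 0.00893, limma), a call lost without wild-type untreated array 1 or MMS array 2.

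**Figure D3:**
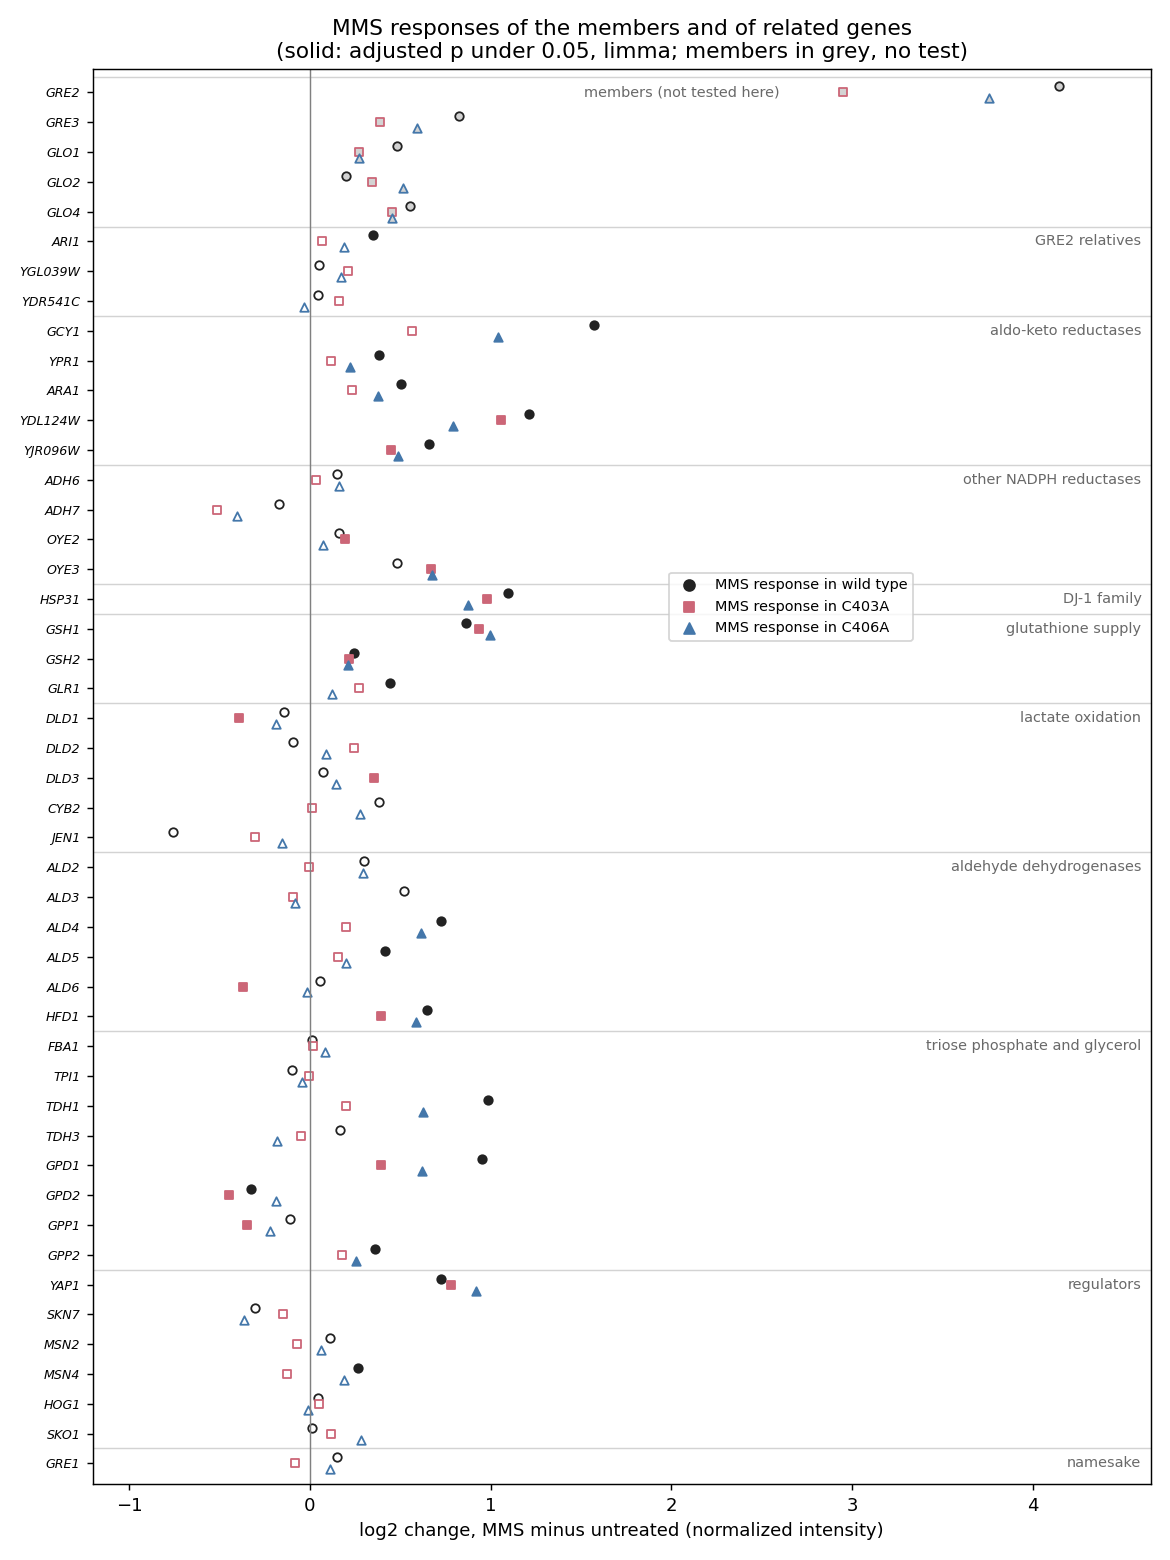
Log2 difference between MMS and untreated arrays for the 5 genes (grey symbols, no test) and for 42 related genes by list, in wild type (circles), C403A (squares) and C406A (triangles); solid symbols passed an adjusted p of 0.05 in limma. GRE2 lies between 2.95 and 4.15 in the 3 strains, and the largest of the related genes, GCY1, at 1.57 in wild type.

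Among the steps that form or lead away from the triose phosphates, FBA1 (aldolase) and TPI1 (triose phosphate isomerase) did not pass in any strain. TDH1, an isoform of glyceraldehyde-3-phosphate dehydrogenase, rose by 0.98 ± 0.19 in wild type and by 0.63 ± 0.19 in C406A (adjusted p = 0.0039 and 0.0415, limma), and the C406A call was lost in 6 of the 12 fits without 1 array. GPD1, the glycerol-3-phosphate dehydrogenase of the glycerol branch, rose by 0.95 in wild type, 0.39 in C403A and 0.62 in C406A, each ± 0.11 SE (adjusted p = 0.000237, 0.0402 and 0.00373, limma). Its C403A call was lost under 4 of the 9 other settings and in 7 of the 12 fits without 1 array. GPD2 of the same branch fell in wild type and C403A (log2 differences -0.33 and -0.45, each ± 0.09 SE, adjusted p = 0.0201 and 0.0105, limma). GPP1, a glycerol-3-phosphatase, fell in C403A (-0.35 ± 0.08, adjusted p = 0.0158, limma). The calls of these decreases were lost on the intensities as deposited, when scaled to hybridization controls and with the compared arrays fitted alone. Of the aldehyde dehydrogenases, ALD4 rose by 0.73 in wild type and 0.62 in C406A, each ± 0.10 SE (adjusted p = 0.000648 and 0.00256, limma). HFD1, a fatty aldehyde dehydrogenase, rose by 0.65 in wild type, 0.39 in C403A and 0.59 in C406A, each ± 0.11 SE (adjusted p = 0.0018, 0.0391 and 0.00471, limma). Its C403A call was lost under 5 of the 9 other settings and in 9 of the 12 fits without 1 array. ALD6 fell in C403A (log2 difference -0.37 ± 0.10, adjusted p = 0.0294, limma), a call lost under 4 of the 9 other settings and in 3 of the 12 fits without 1 array. In lactate oxidation no gene passed in wild type and none in C406A. Under an unadjusted 0.05 were 2 of 5 in wild type and 1 of 5 in C406A, beside 2316 and 1989 of the 5368 tested genes. In C403A, DLD1, which oxidises D-lactate, the product of the glyoxalase route, fell by 0.39 (adjusted p = 0.00674, limma), a call lost on the intensities as deposited, when scaled to hybridization controls and with the compared arrays fitted alone. DLD3, a related D-lactate dehydrogenase, rose there by 0.35 (adjusted p = 0.0482, limma), a call lost in 10 of the 12 fits without 1 array.

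Of the regulators, YAP1, an activator of oxidative stress genes that responds to methylglyoxal, rose by 0.73 in wild type, 0.78 in C403A and 0.92 in C406A, each ± 0.09 SE (adjusted p = 0.000409, 0.000875 and 0.000253, limma), and its C403A call was lost when scaled to hybridization controls. The MMS responses of MSN2, HOG1, SKN7 and SKO1 did not pass in any strain. MSN4 passed in wild type alone, at 0.27, a call lost in 8 of the 12 fits without 1 array. GRE1, found in the same stress screen as GRE2 and GRE3, did not pass in any comparison. It lay near background, with group means of 5.112 to 5.646 in log2 units beside a floor of 5.107, so the lack of a call says little.

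Between strains, the largest number of calls among the related genes was in MMS-treated C403A. There 0 of the 42 were higher and 8 were lower than in wild type, where 13.6% of all tested genes passed in either direction and 6.09% were lower. Leaving out wild-type MMS array 1 left 4 lower, and the intensities as deposited left 1. CYB2, which oxidises L-lactate in mitochondria, was 2.85-fold lower with MMS (log2 difference -1.51 ± 0.16, adjusted p = 0.000671, limma) and 2.2-fold lower without it (-1.14 ± 0.16, adjusted p = 0.00262, limma). With the floor at the 40th percentile the CYB2 differences shrank to -0.37 and -0.11, and the call without MMS was lost, as it was with the compared arrays fitted alone. DLD1 was 1.34-fold lower with MMS (-0.43 ± 0.07, adjusted p = 0.00557, limma). ALD6, the main cytosolic acetaldehyde dehydrogenase, was 1.55-fold lower with MMS (-0.63 ± 0.10, adjusted p = 0.00353, limma), as was GPP1, a glycerol-3-phosphatase, by 1.39-fold (-0.48 ± 0.08, adjusted p = 0.00482, limma). The DLD1, ALD6 and GPP1 calls were lost on the intensities as deposited, and the ALD6 call also when its probe sets were averaged. Without MMS, 4 of the 42 were higher in C403A and 2 were lower (14.1% of all tested genes passed), among them ALD4, 1.57-fold higher (0.65 ± 0.10, adjusted p = 0.00396, limma). The ALD4 call was lost on the intensities as deposited, when scaled to hybridization controls and with the compared arrays fitted alone. Also higher were YDL124W (0.37 ± 0.08), MSN4 (0.31 ± 0.09) and ARI1 (0.29 ± 0.08, adjusted p = 0.0174, 0.0408 and 0.0341 in this order, limma). Each of these calls was lost under 4 of the 9 other settings, and in 2, 9 and 5 of the 12 fits without 1 array. Leaving out wild-type untreated array 2 left 1 of the 42 higher, and the intensities as deposited left 0. GPD1 was 1.48-fold lower in C403A with MMS (-0.57 ± 0.11, adjusted p = 0.0102, limma), a call lost on the intensities as deposited and without wild-type MMS array 1 or C403A MMS array 2. HOG1, the osmostress kinase, was lower in C403A without MMS (-0.28, adjusted p = 0.0117, limma) and with it (-0.28, adjusted p = 0.0126, limma). The first of these calls was lost without untreated array 2 of wild type or of C403A, the second without any 1 of the 4 arrays compared, and both on the intensities as deposited and with the compared arrays fitted alone. MSN2 and GPD2 were also lower in C403A with MMS (log2 difference -0.35 ± 0.09 for each, adjusted p = 0.0343 and 0.0307, limma). Either call was lost under 3 of the 9 other settings and in 6 of the 12 fits without 1 array. In C406A, GPP2, another glycerol-3-phosphatase, was higher without MMS (0.48, adjusted p = 0.0167, limma) and with it (0.37, adjusted p = 0.0373, limma), and HOG1 was lower with MMS (-0.25, adjusted p = 0.0415, limma). These 3 were the only calls among the 42 genes between C406A and wild type. They came to 2.38% of the 42 without MMS and 4.76% with it, close to the 2.7% and 4.53% of all tested genes. Each was lost on the deposited scale and in 3 to 8 of the 12 fits without 1 array. Wild-type array 1 of the same treatment was among the arrays whose removal ended each call.

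Over the 12 arrays, the genes whose normalized log2 values followed GRE2 most closely were PLM2 (Pearson r = 0.978), YLR108C (0.977), RPN6 (0.973), RPT2 (0.973), MRS4 (0.971) and VPS17 (0.969). RPN6 and RPT2 encode proteasome subunits, PLM2 a protein with a forkhead-associated domain, MRS4 a mitochondrial iron carrier and VPS17 a retromer subunit. These correlations are descriptions, since all the genes share the same arrays and the arrays fall into an untreated and an MMS cluster. Within the 6 MMS arrays, r with GRE2 was 0.846 for PLM2 and -0.097 for YLR108C, and within the 6 untreated arrays 0.655 and 0.805. PLM2 was at the floor on 5 of the 6 untreated arrays. None of the 6 matched GRE2 in size: PLM2 differed between MMS and untreated arrays by 2.27 in wild type, 1.63 in C403A and 2.15 in C406A, and VPS17 by 0.35, 0.24 and 0.22.

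**Figure D4:**
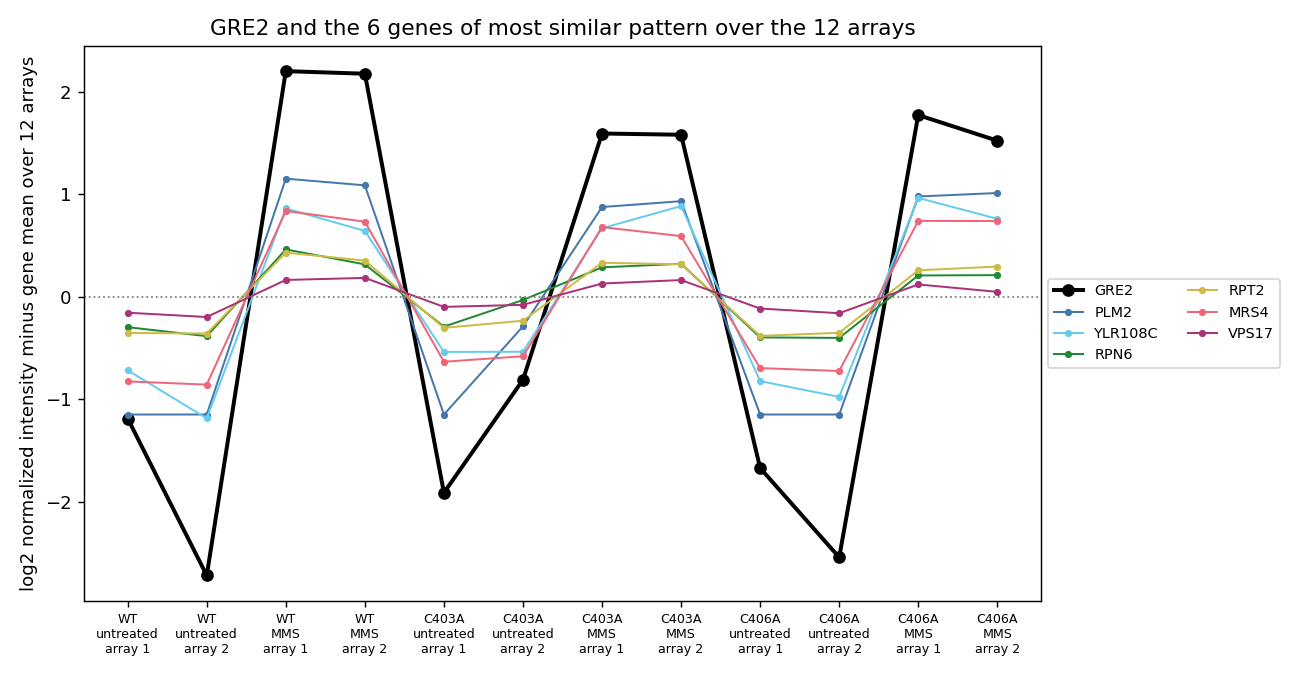
Log2 normalized intensity of GRE2 and of the 6 genes with the highest Pearson r to it, each minus its own mean over the 12 arrays, by array. All 7 lines are low on untreated arrays and high on MMS arrays, and GRE2 spans the widest range.

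For GRE3 the closest genes were LYS1 (r = 0.988), APE1 (0.984) and TPS1 (0.981), which encode an enzyme of lysine synthesis, a vacuolar aminopeptidase and a trehalose-6-phosphate synthase. Within the 6 MMS arrays their r with GRE3 was 0.974, 0.971 and 0.976. For GLO1 they were LDB17 (0.935), CUZ1 (0.928) and PRE8 (0.928), for GLO2 CSE1 (0.851), SKI7 (0.83) and ISN1 (0.825), and for GLO4 FRE6 (0.956), IRS4 (0.948) and NAS2 (0.944). Among the 5 genes themselves, r over the 12 arrays was highest for GRE2 with GRE3 (0.915) and GRE2 with GLO1 (0.854) and lowest for GLO1 with GLO2 (0.251), again over arrays that share the treatment split.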

How the data were processed

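Total RNA was hybridized to 12 Affymetrix yeast arrays, 2 for each of 3 strains with and without MMS. Per the file headers, the authors deposited 1 linear, one-colour intensity for each probe set. How the probes were summarized and scaled is not given in the sources used. Each array held 9335 probe sets, and 8.95% of the values were below 0. Because the highest array median was 1.686 times the lowest, above a limit of 1.5, the 60 control probe sets were left out and the arrays were quantile-normalized. Values under the 20th percentile (34.5) were raised to it, and log2 was taken. The platform annotation, which can be old, gives 6504 probe sets 1 gene, 328 several and 2503 none; only the first were used, with the brighter probe set for the 315 genes that have several. Genes above the floor on fewer than 2 arrays (288) were left out, which left 5368.

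Group means of all 6 groups were fitted in limma 3.58.1 (R 4.3.3) with empirical Bayes moderation and an intensity trend (6 residual and 3.53 prior degrees of freedom). P-values were adjusted by Benjamini-Hochberg over all 5368 genes, with a threshold of 0.05. The fit was tested on simulated data. A fold against a group wholly at the floor is a lower limit. The precision is limited by the 2 arrays a group. The 5 genes and the lists were chosen with earlier results of these data known. Named genes were the 5, SSL1, the 6 genes of highest r with GRE2 and the 3 of highest r with each other member, and, in each list, up to 2 passing genes each way or every gene of a list of 4 or fewer; YPR1, ARA1, YJR096W, FBA1, TPI1, MSN2, SKN7 and SKO1 were named after their values were seen. Sequences of the 5 genes, their promoters and their coordinates were not used here. Alternatives were the deposited scale, median scaling, a 40th percentile floor or none, array weights, a fit of only the groups compared, averaging the probe sets that share a gene, testing without a filter, and leaving out each array in turn. Scaling to 9 hybridization-control probe sets was added after seeing the data. Figures were drawn with matplotlib 3.10.9.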

Additional observations from a re-analysis of the deposited data

How the results depend on the processing

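For the 5 genes, 936 comparisons of 45 results under 9 other settings and 12 fits without 1 array were made. In 844 of them the sign did not reverse and, where a test was given, the call was the same. For values given without a test, the move stayed within the residual SD of the gene. Part of this count was fixed in advance. A difference given without a test cannot move when an array of another group is left out or when the compared groups are fitted alone. A difference of 0 has no sign to reverse. This holds for GLO4 in untreated C406A, whose alternatives ran from -0.021 to 1.22, and for untreated GRE2 with the 40th percentile floor. No paired analysis was possible because the labels number no replicates. With the floor at the 40th percentile, GLO4 could not be tested, and the MMS differences of GRE2 were 2.81, 2.204 and 2.27. The GRE2 difference from wild type with MMS passed at -0.60 in C403A and -0.54 in C406A, in a fit whose error leaves out the spread of untreated GRE2. With the compared groups alone, the C403A value was -0.60 and passed, in a fit that held no untreated arrays. The GLO4 difference in MMS-treated C403A passed with array weights (adjusted p = 0.0429, limma) and in 3 fits without 1 array (0.0404 to 0.0449). The causes were not tested.

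Without 1 array, GRE2 ran from -0.17 to 1.36 in untreated C403A, from -0.92 to 0.61 in untreated C406A, from 3.38 to 4.91 for MMS in wild type, from -1.96 to -0.43 for the C403A difference of responses and from -1.15 to 0.38 for that of C406A. GRE3 ran from -0.087 to 0.048 in untreated C403A and from -0.013 to 0.12 in untreated C406A, and GLO1 from -0.18 to 0.089 in untreated C406A. GLO2 ran from -0.36 to 0.32 in untreated C403A and from -0.50 to 0.28 in untreated C406A, and its response differences from -0.197 to 0.49 in C403A and from -0.075 to 0.698 in C406A. The GLO4 response difference in C403A ran from -0.35 to 0.15.

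Signs also turned with the scale. On the deposited scale, untreated GRE3 was 0.009 in C403A and -0.16 in C406A, GLO1 with MMS in C403A was 0.025 and its C406A response difference 0.049, untreated GLO2 in C403A was 0.021 and the C403A response difference of GLO4 0.056. Scaled to hybridization controls, GRE3 was -0.25 in untreated C406A with a response difference of 0.11. GLO1 was -0.11 in untreated C403A with a C406A response difference of 0.20, GLO2 was -0.15 in C403A with MMS, GLO4 was 0.011 in C406A with MMS with a response difference of 0.032, and OYE2 with MMS in C403A was -0.041. Under median scaling, untreated C403A gave 0.017 for GRE3 and 0.029 for GLO2.

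Over all tested genes, the number of calls depended on the fit. Against wild type it was 759 in untreated C403A (5 to 798 over the alternatives), 728 in MMS-treated C403A (78 to 940), 145 in untreated C406A (0 to 215) and 243 in MMS-treated C406A (0 to 303). For MMS it was 1770 in wild type (795 to 1879), 835 in C403A (106 to 899) and 1286 in C406A (678 to 1560), and for the differences of responses 53 (1 to 91) and 0 (0 to 54). The share of calls that were higher with MMS went from 58%, 54.1% and 53.1% to 91.9%, 97.8% and 98.6% on the deposited scale.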
